A study of Saccharomyces cerevisiae with 4 samples.

Results

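Molecules that carried 2 or more complete open reading frames (ORFs) were described in budding yeast lacking RRP6, an exonuclease of the nuclear exosome. All 4 libraries came from strain FSY3636, a MATa strain of the S288c background in which kanMX4 replaces RRP6. It was grown in YPAD, a rich glucose medium, to mid-log phase. There were 2 cultures, each prepared as 2 libraries, and the same deletion is in all of them. A wild-type strain was not analysed here, so nothing below is a change relative to one. TIF-Seq reads the capped start and the polyadenylated end of the same RNA molecule. The deposited table gives each distinct pair of start and end, called an isoform, with 1 read count pooled over the 4 libraries. Spread between libraries can therefore not be given for any value, and the intervals below describe counting error alone.

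A molecule was taken when its span from start to end held, from start to stop codon, at least 2 of the 6002 nuclear protein-coding ORFs of genome build R64 on its own strand. This rule took 1060 of 425462 isoforms, with 2441 of 1833796 reads (0.133%, 95% Wilson interval 0.128 to 0.139). Isoforms that covered exactly 1 ORF numbered 207666. The chosen isoforms fell into 151 sets of ORFs, of which 146 held 2 ORFs and 5 held 3. RRP6 itself had 0 covering reads, which allows up to 1.64 CPM (CPM is a read count scaled to the reads of the whole table).

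Most yeast mRNAs carry a single coding ORF, since a ribosome loads at the cap and usually starts at the first suitable AUG. An ORF that stands before the main one can limit translation of the main one, and an ORF that stands after it is usually reached poorly by scanning ribosomes. Whether a molecule ends between neighbouring genes depends on cleavage and polyadenylation signals after the first stop codon, which in yeast are short AT-rich elements.

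The start codons of 3 leading sets are shown because each set places both of them on the same molecule. Each run gives 15 bases before the start codon, the start codon in capitals and 12 bases after it, from R64.
PMP1, chrIII:163053-163082, minus strand: tttaatctatcataaATGactttaccaggt
YCR024C-B, chrIII:162851-162880, minus strand: atgaattagactactATGtgtgtgtgtgcg
YNL155C-A, chrXIV:342121-342150, minus strand: gacagctcaacattgATGatagggcttatt
NSG2, chrXIV:341954-341983, minus strand: aaaacagcatacagaATGgccaatagagga
YOR302W, chrXV:882750-882779, plus strand: taaaaaaaacattatATGtttagcttatcg
CPA1, chrXV:882884-882913, plus strand: ctaaaaatatttcaaATGtcctccgctgca
An A at position -3, counted back from the start codon, favours initiation in yeast. It was present in 11 of 20 first ORFs and 12 of 20 second ORFs of the pairs with at least 10 reads, against 60.8% of all ORFs.

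The 2 shortest distances without overlap among the pairs named here are shown with the first stop codon and the second start codon in capitals.
MIN9 to URA6, chrXI:393138-393148, minus strand: TAAgacaaATG
NIT1 to YIL165C, chrIX:34075-34089, minus strand: TAGaggactgtgATG
MIN9 and URA6 stood 5 bases apart and in different frames. NIT1 and YIL165C stood 9 bases apart and in the same frame, with only 5 spanning reads. They were counted as 2 ORFs because the annotation lists them so.

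The reads were concentrated in few sets. PMP1 with YCR024C-B held 1033 reads (42.3%), and the 10 sets with most reads held 2008 (82.3%). At the other end, 70 sets had 1 read and the median set had 2. Of the member isoforms, 774 (73.0%) had 1 read, close to the 72.1% of all isoforms. A member isoform had 2.30 reads on average, and an isoform that covered 1 ORF had 6.81.

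**Figure D1:**
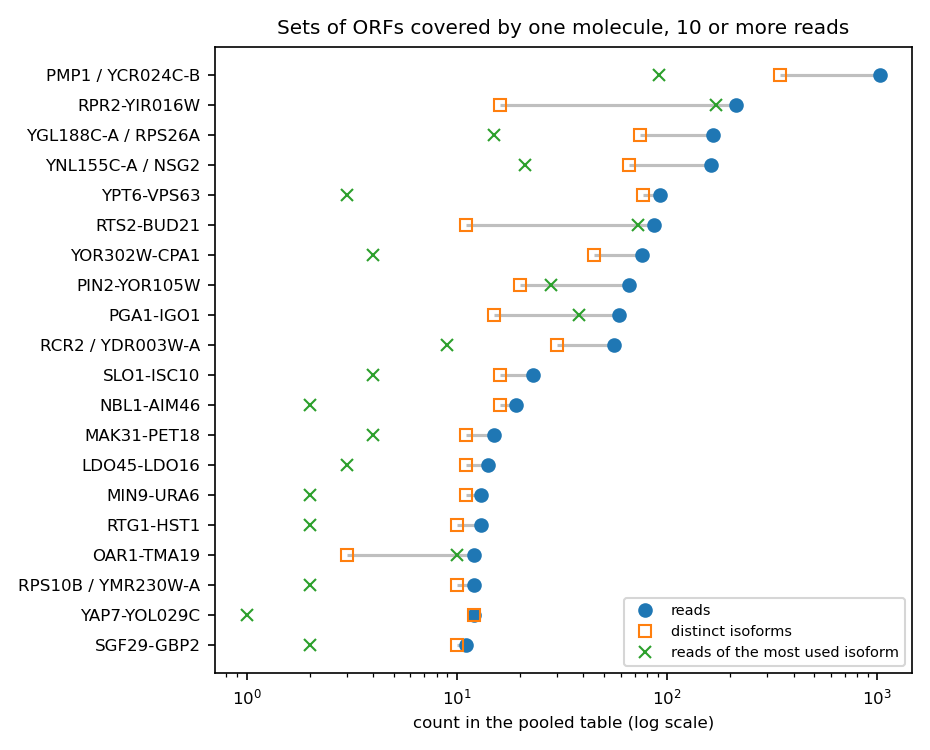
Reads (filled circles), distinct isoforms (open squares) and reads of the most used isoform (crosses) for the 20 sets with at least 10 reads, on a log axis of pooled counts. PMP1 with YCR024C-B leads with 1033 reads on 345 isoforms, while RPR2 with YIR016W has 213 reads on 16 isoforms, 171 of them on 1 isoform.

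A tandem pair is here a pair of neighbouring ORFs of the same strand with no ORF of the other strand wholly between them. Of 2947 tandem pairs, 146 (4.95%) had at least 1 read over both ORFs, and 20 (0.679%) had at least 10. The pairs with a spanning read were close together, with a median of 246.5 bases from stop to start codon, with quartiles of 172 and 349, against a median of 398 with quartiles of 273 and 630 over all tandem pairs. They were also short, with a median of 1746 bases from the first start codon to the second stop codon, against 3254 bases over all tandem pairs. Spanning reads were found in 16.4% of the pairs 0 to 100 bases apart (interval 8.85 to 28.3) and in 1.65% of those 601 to 1000 bases apart (0.802 to 3.37). By length to be covered, the share was 27.1% up to 1000 bases (16.6 to 41.0) and 0 of 936 pairs at 4001 bases or more (upper bound 0.409%). The assay held few long molecules of any kind, with 0.921% of all reads at 2000 bases or more. Among pairs of up to 2000 bases the share was 42.1% for the 19 pairs with overlapping ORFs (23.1 to 63.7). Without overlap it did not fall over the first distance classes. It was 18.2% (8.61 to 34.4) at 0 to 100 bases apart, 24.0% (15.8 to 34.8) at 101 to 200, 26.9% (19.7 to 35.5) at 201 to 300 and 20.5% (13.2 to 30.4) at 301 to 400 bases. It was 13.3% (7.79 to 21.9) at 401 to 600 and 10.8% (4.29 to 24.7) at 601 to 1000 bases. These intervals overlap those of the closer classes without overlapping ORFs. Pairs with a spanning read also had more reads, with medians of 32 on the first ORF and 72 on the second. Over all tandem pairs the medians were 6 and 8. Spanning reads are included in these values. The median on the first ORF was 1 at 0 to 100 bases apart and 5 at 601 to 1000. By length it was 1.5 up to 1000 bases, 44 at 1001 to 1500 and 1 at 4001 or more. The parts of distance, length and read depth were not tested separately.

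**Figure D2:**
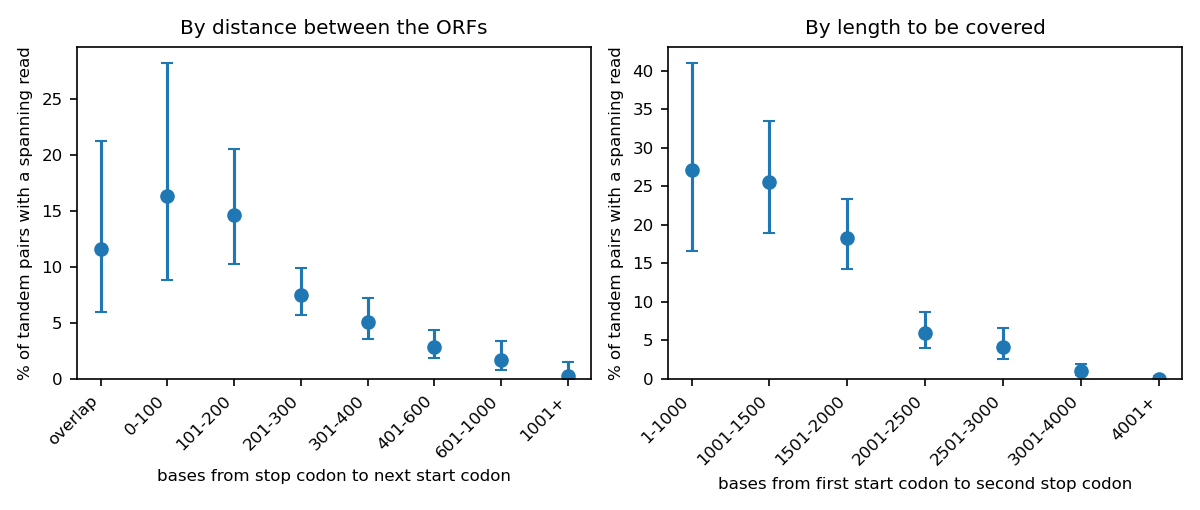
Percent of tandem pairs with at least 1 spanning read, by distance between the ORFs (left) and by length from the first start codon to the second stop codon (right), with 95% Wilson intervals. The share is 16.4% at 0 to 100 bases apart and 0.273% beyond 1000 bases, and 27.1% up to 1000 bases of length and 0 beyond 4000.

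Spanning molecules had a median span of 930 bases with quartiles of 817 and 1548, against a median of 899 with quartiles of 691 and 1132 for molecules that covered 1 ORF. The first value rests on PMP1 with YCR024C-B, and without that set it was 1460 bases. Among all reads at least 2000 bases long, 0.994% (0.855 to 1.16) covered several ORFs. Among those of at least 2500 bases it was 1.84% (1.43 to 2.37).

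**Figure D3:**
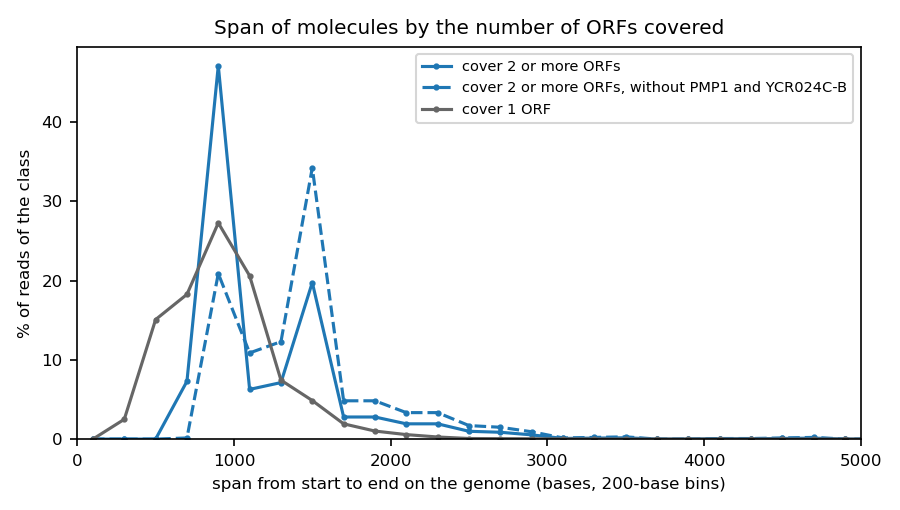
Percent of the reads of each class by span on the genome in 200-base bins, for molecules that cover 2 or more ORFs (solid blue, and dashed without PMP1 and YCR024C-B) and molecules that cover 1 ORF (grey). The members have peaks in the bins that start at 800 (47.1% of reads) and 1400 bases (19.8%), and without PMP1 and YCR024C-B these bins hold 20.9% and 34.2%.

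By layout, 4 sets of 2 short ORFs, each under 300 coding bases, held 1043 reads (42.7%), nearly all from PMP1 with YCR024C-B. Another 10 sets with a short ORF before a longer one held 326 reads (13.4%), and 14 sets with a short ORF after a longer one held 89 (3.65%). The 110 sets of 2 longer ORFs without overlap held 637 reads (26.1%) at a median of 1 read a set. Overlapping pairs numbered 8, with 337 reads (13.8%).

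PMP1 and YCR024C-B (chromosome III, 162945 to 163067 and 162599 to 162865, minus strand) were read as 1 transcript. PMP1 encodes a small proteolipid that regulates the proton pump of the plasma membrane, and YCR024C-B is an uncharacterized ORF of 267 bases, 79 bases past the stop codon of PMP1. The set reached 563 CPM (95% Poisson interval 530 to 599) on 345 isoforms with 102 start sites and 36 end sites. The most used start lay 149 bases before PMP1 (172 reads) and the most used end 190 bases past YCR024C-B (343 reads). Of 1071 reads that covered PMP1, 1033 also covered YCR024C-B (96.5%, Wilson interval 95.2 to 97.4). The other 38 ended inside YCR024C-B, and 0 ended between the ORFs. Seen from YCR024C-B, 1033 of 1073 covering reads held PMP1, 27 started inside PMP1 and 13 started between them. Most PMP1 molecules thus had YCR024C-B in their 3′ part, and 40 molecules carried YCR024C-B without PMP1.

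RCR2 with YDR003W-A joined a longer ORF to a short one after it. RCR2 (chromosome IV, 454122 to 454754, plus strand) encodes a vacuolar protein named for Congo red resistance, and YDR003W-A is an uncharacterized ORF of 123 bases that starts 27 bases later. Of 57 reads that covered RCR2, 56 held both ORFs (98.2%, 90.7 to 99.7) and 1 ended inside YDR003W-A. RPS10B, a gene of the small ribosomal subunit, went the other way. Of 2055 reads that covered RPS10B, 12 also covered YMR230W-A (0.584%, 0.334 to 1.02), 72 ended inside it and 1971 ended between the ORFs. YMR230W-A had no other covering read than these 12, and it was named after its values were seen. Of the 12 reads, 6 ended before A-rich genome, a term explained below. RPS10B has a close paralog, so its read placement depends on the authors' mapping.

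Short ORFs before a main ORF formed another group. YOR302W encodes the arginine attenuator peptide, which represses translation of CPA1, the small subunit of carbamoyl phosphate synthetase. YOR302W (chromosome XV, 882765 to 882842, plus strand) ends 56 bases before CPA1, and 76 of 98 reads that covered CPA1 also held it (77.6%, 68.3 to 84.7). Another 21 reads started inside YOR302W and so lacked its start codon, and 1 started between the ORFs. The most used start lay 2 bases before the YOR302W start codon (15 reads), and the median start 58 bases before it. A start site that close to the codon leaves almost no leader, and the base where it lies is shown in capitals with the start codon.
YOR302W start site, chrXV:882753-882782, plus strand: aaaaaacattAtATGtttagcttatcgaac
YNL155C-A start site, chrXIV:342120-342149, minus strand: acagctcaacAttgATGatagggcttattg

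YNL155C-A with NSG2 was built alike. NSG2 encodes a membrane protein of sterol regulation, and the uncharacterized YNL155C-A (225 bases) overlaps its first 58 bases in another frame. The pair had 161 reads, with 88 starting 4 bases before YNL155C-A, and 44 of the 161 ended before A-rich genome. Of 165 reads that covered NSG2, 161 held both (97.6%, 93.9 to 99.0), and 4 started inside YNL155C-A. In YGL188C-A with RPS26A the short ORF was on a minority of molecules. RPS26A, a gene of the small ribosomal subunit with a near-identical paralog, had 3004 covering reads, of which 165 also held YGL188C-A (5.49%, 4.73 to 6.37) and 2829 started between the ORFs. With at least 5 reads per isoform the share was 2.67%. From the other side, 165 of the 172 reads that covered YGL188C-A ran on through RPS26A, and 7 ended between them.

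MIN9 with URA6, NBL1 with AIM46 and SLO1 with ISC10 had lower counts. URA6, the uridylate kinase gene, had 164 covering reads, and 151 of them started inside MIN9, whose stop codon stands 5 bases before URA6. The other 13 held both ORFs (7.93%, 4.69 to 13.1). NBL1, which encodes the borealin-like subunit of the chromosomal passenger complex, was covered by 19 reads, and all 19 ran on through AIM46 (interval 83.2 to 100). AIM46 had 42 further reads that started inside NBL1 and 54 that started between the ORFs. SLO1, whose product binds an Arf-like GTPase, was covered by 27 reads and 23 of them (85.2%, 67.5 to 94.1) also covered ISC10, a gene required for spore formation. Of those 23 reads, 18 ended before A-rich genome, a term explained with the next group.

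In a further group of pairs 2 long ORFs shared a transcript, and the first ORF was seen only there. RPR2 (chromosome IX, 381948 to 382382, plus strand) encodes a protein subunit of ribonuclease P, and the uncharacterized YIR016W starts 245 bases after it. All 213 reads that covered RPR2 also covered YIR016W (interval 98.2 to 100), at 116 CPM (101 to 133), and 0 molecules of any start ended between the ORFs. YIR016W had 17 other covering reads, 14 of which started between the ORFs. RTS2 with BUD21, a gene of the small subunit processome, had 87 of 87 RTS2 reads over both ORFs (95.8 to 100). BUD21 had 222 reads that started in the 127 bases between them, so the shared transcript was 27.0% (22.5 to 32.1) of its covering reads. PGA1, a gene of the synthesis of GPI anchors, had 59 of 59 reads over both itself and IGO1 (93.9 to 100). IGO1, a regulator of protein phosphatase 2A, had 52 reads that started inside PGA1 and 52 that started in the 143 bases between, which left 36.2% (29.2 to 43.8) on the shared transcript.

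These 3 sets rested on few isoforms. The most used isoform held 171 of the 213 reads of RPR2 with YIR016W (80.3%), 73 of 87 in RTS2 with BUD21 (83.9%) and 38 of 59 in PGA1 with IGO1 (64.4%), against 8.81% in PMP1 with YCR024C-B. Whether such reads are separate molecules or PCR copies was not tested.

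A further value touches their ends. A molecule end is called before A-rich genome when at least 6 of the next 10 genome bases are A, since a primer of T can also pair there. Of the reads of RPR2 with YIR016W, 200 of 213 ended so, and of RTS2 with BUD21, 82 of 87. The figures were 0 of 59 for PGA1 with IGO1 and 4 of 1033 for PMP1 with YCR024C-B. Other molecules of the same second ORF ended before A-rich genome too, with 10 of 17 in YIR016W and 162 of 235 in BUD21. The most used end sites are shown with 15 bases up to the end in lower case and the next 10 genome bases in capitals.
RPR2 with YIR016W, chrIX:383487-383516, plus strand: gaaacggaaaaatcgAAAAATCGAAgttgg
RTS2 with BUD21, chrXV:473394-473423, plus strand: taatagtacaatcacAAAATTAATCataat
PMP1 with YCR024C-B, chrIII:162394-162423, minus strand: atacaatccttacagAGATTAGGCCgtcga
Without such ends RPR2 with YIR016W kept 13 reads and RTS2 with BUD21 kept 5, and the shared transcript was then 6.41% of the reads that covered BUD21. Over all spanning reads, 21.5% (19.9 to 23.1) ended before A-rich genome, against 20.7% (20.6 to 20.7) of reads that covered 1 ORF. Without PMP1 with YCR024C-B the share of spanning reads was 36.9% (34.5 to 39.5). That higher value rests on RPR2 with YIR016W and RTS2 with BUD21, and without all 3 sets, left out after their values were seen, it was 21.5% of 1108 reads (19.2 to 24.0). The part of internal priming in these ends was not tested.

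**Figure D4:**
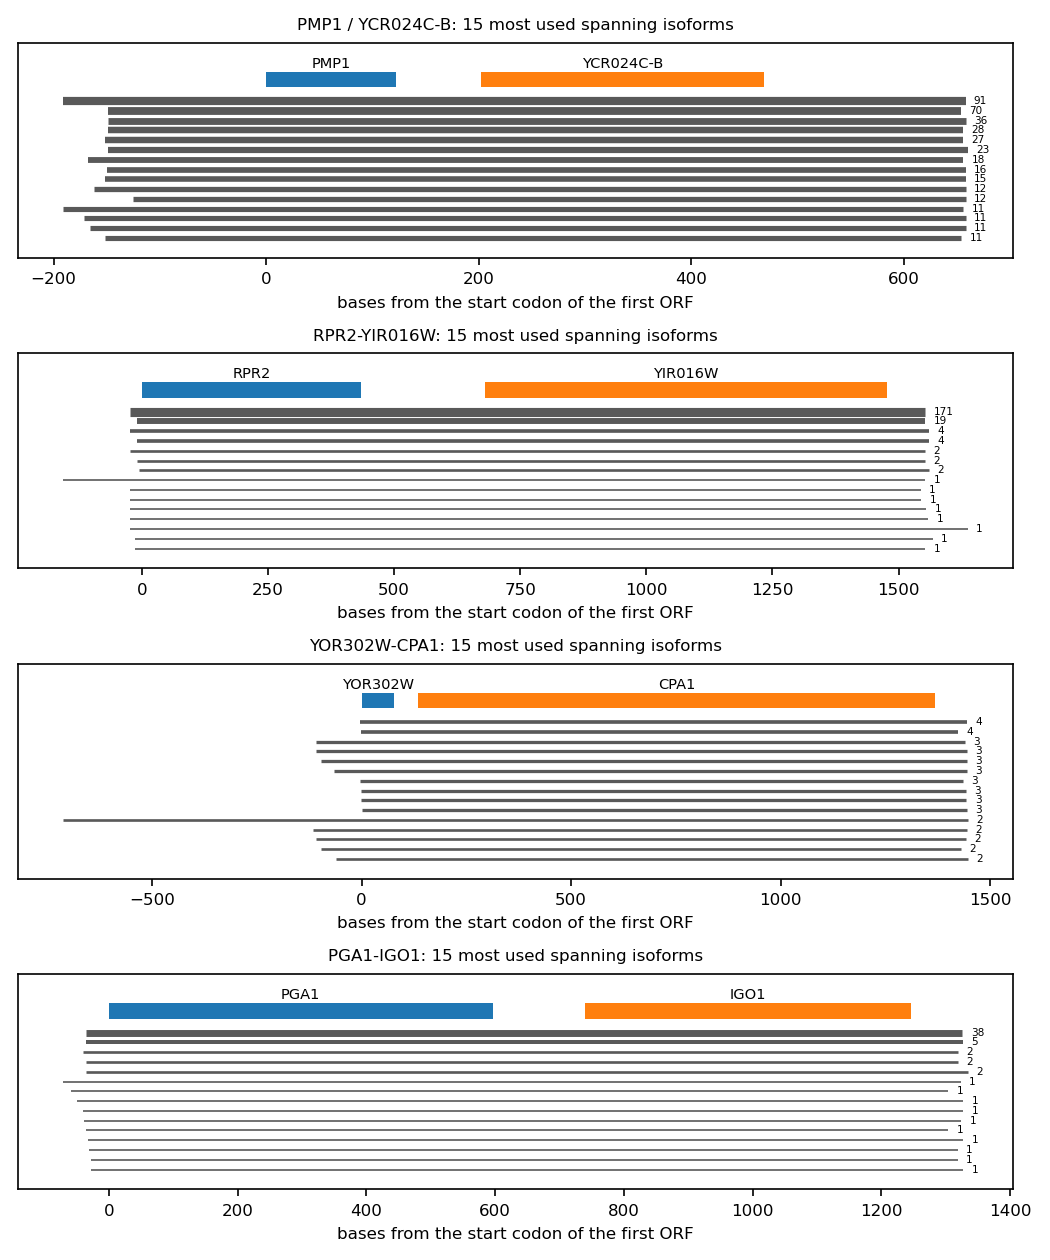
The 15 most used spanning isoforms of 4 pairs as lines from start to end, with reads at the right and line width rising with the log of the reads, below the first ORF (blue) and the second ORF (orange), in bases from the first start codon. PMP1 with YCR024C-B has many isoforms of up to 91 reads, RPR2 with YIR016W has 171 reads on 1 isoform, and YOR302W with CPA1 has starts 2 and 109 bases before the first ORF.

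Some sets held ORFs that overlap in the annotation. YPT6, a Rab GTPase gene of the Golgi, shares 320 bases with VPS63, an ORF named for vacuolar sorting defects of its mutants. VPS63 has 327 coding bases, so nearly all of it lies within YPT6, and its mutants can alter YPT6 too. All 92 reads that covered YPT6 covered VPS63, on 77 isoforms of at most 3 reads each. On the minus strand YPT6 ends at 668244 and VPS63 at 668237, so a molecule over YPT6 was almost bound to cover VPS63. Of these 92 reads, 49 ended before A-rich genome and 43 did not. PIN2 shares 296 bases with the uncharacterized YOR105W, and 66 reads covered exactly these 2 ORFs. PIN2 ends at 518490 and YOR105W at 518521 on the plus strand, so a molecule over PIN2 was likewise almost bound to cover YOR105W. Of these 66 reads, 13 ended before A-rich genome. LDO45 and LDO16, which act at lipid droplets with seipin, share their last exon. Of 24 reads that covered LDO16, 14 began before LDO45 and 10 began inside it. Of those 14 reads, 5 ended before A-rich genome. In all, 9 of the 151 sets had overlapping ORFs. Among the other 142 sets, identical bases in a local alignment came to at most 24.4% of the shorter coding sequence.

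From the side of the first ORF, at least 50% of covering reads ran on over the next ORF in 11 of 1109 tandem pairs with at least 20 such reads (0.992%). From the side of the second ORF, at least 50% of covering reads held the ORF before it in 10 of 1137 pairs (0.88%). The 8 pairs past 50% from both sides were PMP1 with YCR024C-B, RPR2 with YIR016W, YNL155C-A with NSG2, YPT6 with VPS63, YOR302W with CPA1, PIN2 with YOR105W, RCR2 with YDR003W-A and SLO1 with ISC10. Of the 20 pairs with at least 10 spanning reads, 11 had a first ORF that no other molecule covered. They include YPT6 with VPS63, PIN2 with YOR105W and LDO45 with LDO16, where the overlap almost fixes this outcome. LDO45 and LDO16 share their stop codon. Without sets of overlapping ORFs, 8 pairs were past 50% from the side of the first ORF and 6 from the second.

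**Figure D5:**
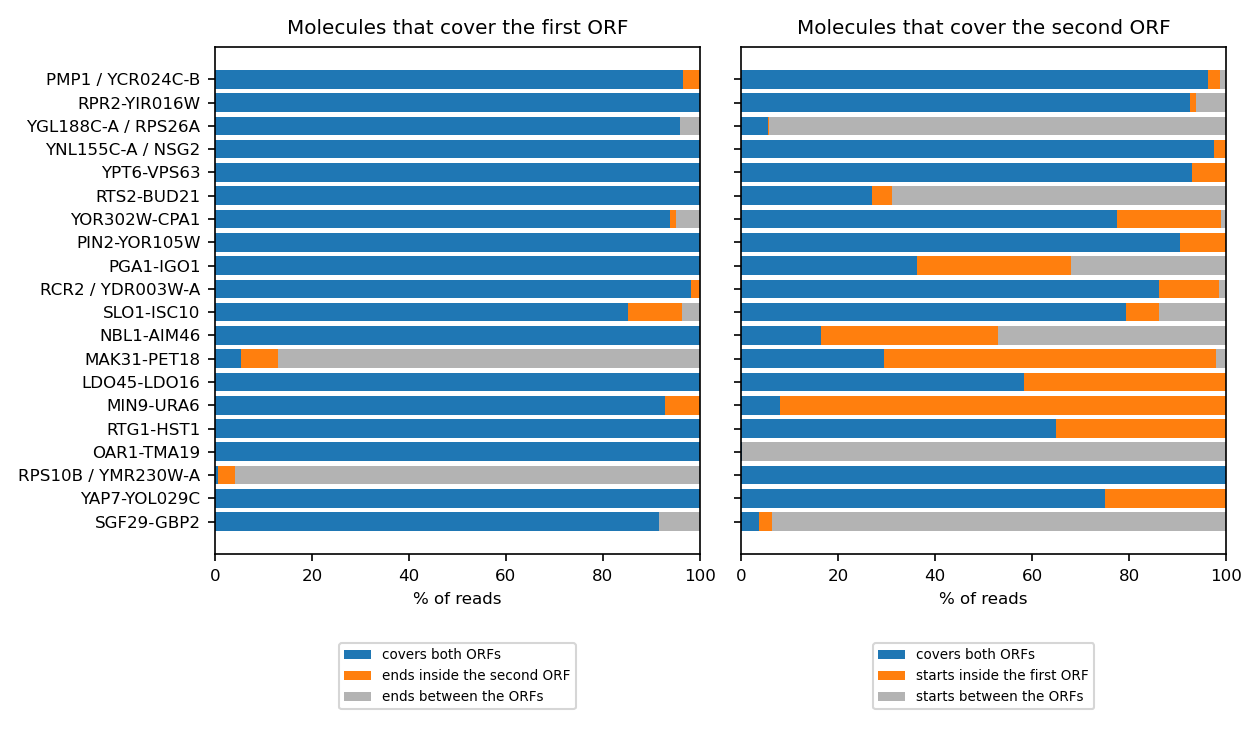
Share of the reads that cover the first ORF (left) by where they end, and of the reads that cover the second ORF (right) by where they start, for the 20 pairs with at least 10 spanning reads. Blue, the molecule covers both ORFs. Spanning molecules make up 96.5% of PMP1 and 5.40% of MAK31 reads on the left, and 5.49% of RPS26A reads on the right.

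Among first ORFs with many reads, few molecules covered the whole of the next ORF as well. Over 559 tandem pairs with at least 100 reads on the first ORF, 1686 of 543939 reads ran on over the second ORF, in 46 pairs. Of these 559 pairs, 4 were past 50%, namely PMP1, RPR2, YNL155C-A and YGL188C-A. They were set aside after their values were seen, which lowers the share in the rest. In the other 555, 114 of 542322 reads ran on over the second ORF (0.0210%, 0.0175 to 0.0253), and 42 pairs had at least 1 such read. Molecules that ended inside the second ORF are not counted in this share. Pairs of any length were taken, though the assay held few long molecules. The share is thus not a rate of run-on past the first ORF. MAK31, a subunit of an N-terminal acetyltransferase, had the most spanning reads among these 555 pairs. Of 278 reads that covered MAK31, 15 ran over PET18 (5.40%, 3.30 to 8.71), 21 ended inside PET18 and 242 ended in the 170 bases between. The share was 9.26% without ends before A-rich genome, 2.69% with at least 2 reads per isoform and 0 with at least 5. PET18 had 51 covering reads, 35 of which started inside MAK31.

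The other 4 pairs with at least 10 spanning reads, besides RPS10B with YMR230W-A, were named after their values were seen. OAR1 was covered by 12 reads, all of which ran on over TMA19, the homologue of a translationally controlled tumour protein. These reads lay on 3 isoforms, with 10 of the 12 on 1 isoform, and whether they are PCR copies was not tested. TMA19 was covered by 5203 reads, of which 5190 started between the ORFs, so the same 12 reads were 0.231% of its total (0.132 to 0.403). RTG1, which encodes a transcription factor of the retrograde response, was covered by 13 reads, and all 13 ran on over HST1, a deacetylase gene. HST1 had 20 covering reads, so the spanning molecules were 65.0% of them. Of these 13 reads, 9 ended before A-rich genome. YAP7 with YOL029C had 12 spanning reads, which were all of the YAP7 reads and 12 of 16 YOL029C reads (50.5% to 89.8%), and all 12 ended before A-rich genome. SGF29 with GBP2 had 11 spanning reads, which were 91.7% of 12 SGF29 reads (64.6 to 98.5) and 3.64% of 302 GBP2 reads (2.05 to 6.40). Of these 11 reads, 7 ended before A-rich genome.

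Spanning molecules mostly ended where other molecules of the second ORF end. Over 105 pairs with at least 10 reads on the second ORF alone, 91.7% of 1931 spanning reads (90.4 to 92.8) ended within 20 bases of its most used end, and 80.6% of its other reads did (80.3 to 80.9). Without PMP1 with YCR024C-B the share was 87.1% of 898 spanning reads. Starts could be compared in 81 pairs, and 10.9% of 1215 spanning reads (9.31 to 12.8) lay within 20 bases of the most used start of the first ORF alone, against 90.8% of its other reads (90.6 to 91.0). For starts and ends alike the most used site was taken from those other reads, so their closeness to it is partly built in. Reads were pooled over pairs, so pairs with many reads weigh most. The value for starts of spanning reads rests on PMP1, whose 38 other covering reads most often started 313 bases before it. The median start of those 38 reads was 166 bases before PMP1, and that of its spanning reads 153 bases. Without PMP1 the share of spanning reads near the most used start was 71.4% of 182 reads (64.5 to 77.5).

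Elements linked to 3′ end formation in yeast were searched after the first stop codon. The letters TATATA and AATAAA were sought on the transcribed strand in the 100 bases after the stop codon, counted separately and allowed to overlap. In tandem pairs at least 100 bases apart, TATATA was present after 25 of 129 first ORFs of pairs with spanning reads (19.4%) and after 901 of 2824 first ORFs of all such pairs (31.9%). AATAAA was present after 14 of 129 (10.9%) and 449 of 2824 (15.9%). The window held a median of 66% A or T in pairs with spanning reads, against 69% over all such pairs, and the part of base composition in the difference was not tested. After the second ORF of the 146 sets of 2, TATATA was present in 39.0%, against 33.7% of all 6002 ORFs.

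The 151 sets held 296 distinct ORFs. Of these, 35 (11.8%) had under 300 coding bases, against 5.31% of all ORFs, and 47 (15.9%) had a systematic name only, against 12.4%. Cytosolic ribosomal protein genes made up 13 (4.39%, against 2.28%), mitochondrial ribosomal protein genes 5 (1.69%, against 1.12%) and genes with an intron 16 (5.41%, against 5.30%). Of 94 Ty element ORFs, 0 were in a set. Short ORFs also make a pair shorter, and the parts of length and read depth in these shares were not tested.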

How the data were processed

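TIF-Seq of 4 libraries was deposited as 1 column of raw read counts per pair of start and end position, and the authors pooled the libraries in it. The submitters' processing notes name the tools CASAVA and Novoalign (version 2.07.10) and the build R64. Whether PCR copies were removed is not given in the sources used here. Depth was 1833796 reads in all, and depth per library is unknown. Positions were used as deposited, 1-based, with RefSeq's R64 sequence and annotation, and all lay within the 16 nuclear chromosomes. Spans include introns. ORF content was assigned with Python 3.11.15 and pandas 2.3.3, and tested on simulated molecules. CPM scales a read count to all reads of the table. Shares carry 95% Wilson intervals and CPM exact Poisson intervals (SciPy 1.17.1), and coding sequences within a set were aligned locally with Biopython 1.88. There was 1 group and no test across samples.

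Sets were named by rule: the 15 with most reads, the 5 with the largest share from each side among pairs with at least 20 reads, and sets of 3 ORFs with at least 2 reads. RPS10B with YMR230W-A, OAR1 with TMA19, RTG1 with HST1, YAP7 with YOL029C, SGF29 with GBP2, NIT1 with YIL165C, and in the closing section HMS2 and YLR179C, were named after their values were seen. The members and lists were chosen with earlier results of these data known.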

Additional observations from a re-analysis of the deposited data

How the results depend on the processing

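Values below are given with at least 2 reads per isoform first and at least 5 second. The share of reads over several ORFs was 0.109% and 0.0867%, the number of sets 46 and 11, the median span 850 and 850 bases, and the median distance between the ORFs 214 and 143 bases. Starts within 20 bases of the most used site were 3.82% and 0.82%, and ends 93.3% and 97.1%. Pairs past 50% were 7 from the side of the first ORF and 5 from the second at a minimum of 5. Without ends before A-rich genome the median span was 842 bases and the share of ends near the most used site 94.0%. Without overlapping ORFs the share was 0.115%, the span 850 bases and the pairs past 50% from the second ORF 6. Without ORFs of near-identical coding sequence, which removed overlapping ORFs alone, the share was 0.124% and the span 859 bases. With sites merged within 20 bases the span was 941 bases, and counted by distinct isoforms the share was 0.249%. Within 50 bases, 14.0% of starts and 96.1% of ends lay near the most used site. Without PMP1 with YCR024C-B, chosen after seeing the data, the share was 0.0768%, the span 1460 bases, and 71.4% of starts and 87.1% of ends lay near. The cause of each shift was not tested. Of 194 values of single pairs under the alternatives, 137 stayed within their interval or 1.5 times their count. That total includes 36 values without near-identical ORFs and 33 without overlapping ORFs, which could not move. Those settings drop whole sets and leave the reads of a kept pair unchanged. Under the other settings, 22 of 45 values stayed with at least 2 reads per isoform and 10 of 35 with at least 5. Without ends before A-rich genome 36 of 45 stayed. Leaving out each culture and preparation was not run, since the file has 1 pooled column. No paired analysis was possible because the libraries form 1 group. With at least 2 reads per isoform spanning reads were 8.33% of AIM46 and 3.10% of URA6 reads. With at least 5, 0 spanning reads were left for YPT6, YOR302W, SLO1, NBL1, MAK31, LDO45 and MIN9, and the share of BUD21 reads was 42.4%. Of the 151 sets, 70 rest on 1 read.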

Other observations

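Molecules over 3 ORFs were rare, with 9 reads on 5 sets. YGK1, SEH1 and LSG1 (chromosome VII, 312193 to 316553, plus strand) had 3 reads on 3 isoforms with spans of 4773 to 4785 bases, the longest among the members. SEH1 encodes a nuclear pore subunit and LSG1 a GTPase of ribosome maturation. Of all 37 reads of at least 4000 bases, 7 covered several ORFs (18.9%, Wilson interval 9.48 to 34.2). YBR197C, YBR196C-B and YBR196C-A (chromosome II, minus strand) also had 3 reads on 3 isoforms.

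HMS2 with BAT2, an aminotransferase gene, had 3 reads on 1 isoform that started 90 bases before HMS2, where the most used start of the other 18 reads of HMS2 also lies. YLR179C with TFS1 had 6 of 633 YLR179C reads over both ORFs (0.948%, 0.435 to 2.05), 5 of them on 1 isoform with the most used start of YLR179C.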
